A study of Mus musculus with 13 samples.

Results

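The platelet-derived growth factor (PDGF) family was followed here as 6 genes: the 4 ligand genes Pdgfa, Pdgfb, Pdgfc and Pdgfd and the 2 receptor genes Pdgfra and Pdgfrb. They were taken by symbol from the 20270 genes listed in the deposited tables, and all 6 had enough counts to be tested. RNA came from the lower right lung lobe of 13 mice, 1 library per mouse. The Control group held 4 wildtype mice, numbered in the labels as 3, 21, 24 and 26. The WT bleomycin group held 5 wildtype mice (4, 2, 5, 4-B2 and 7), 14 days after a single oropharyngeal dose of bleomycin at 1 U per kg, a drug that injures the lung and leads to fibrosis. Labels 4 and 4-B2 share a number, what B2 stands for is not stated, and they are taken here as 2 mice. The wildtype mice were male C57BL/6J mice obtained at 13 weeks of age, and their age at sampling is not stated. Control animals of the study received saline. The CB1R KO bleomycin group held 4 Cnr1-/- mice on a C57Bl/6J background (8, 9, 10 and 11) sampled at the same time after the same dose, and their age and sex are not given in the sources used here. No uninjured CB1R KO lungs were analysed here, so an effect of the deletion in the uninjured lung cannot be told apart from one after injury.

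PDGFs are dimeric secreted proteins that drive the division, survival and migration of mesenchymal cells. PDGF-A and PDGF-B are cleaved inside the producing cell before release, whereas PDGF-C and PDGF-D are secreted as latent dimers whose CUB domains must be cut off by extracellular proteases. PDGF-A and PDGF-C act mainly on the alpha receptor, which marks fibroblasts of the lung, and PDGF-B and PDGF-D act on the beta receptor of pericytes and smooth muscle, with PDGF-B binding both.

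The library totals were 14615904 to 16662580 estimated counts in 12 libraries, and 53463884 in CB1R KO replicate 11. Lung markers were high in every library, with Sftpc, a surfactant gene of type II cells, at 14306 TPM or more and Ager, a gene of type I cells, at 1764 TPM or more. TPM, kallisto's relative unit, is scaled for transcript length and allows levels of different genes to be compared, whereas CPM, the count relative to the library total after edgeR's TMM scaling, is used for differences of 1 gene between groups. Cnr1, the gene deleted in CB1R KO mice, lay at 0.648 to 1.499 TPM in the libraries labelled CB1R KO. It lay at 0.848 to 1.85 TPM in WT bleomycin and at 0.403 to 1.05 TPM in control libraries, and the groups overlapped. Between CB1R KO and WT bleomycin its log2 fold change was -0.53 (95% interval -1.13 to 0.08, edgeR adjusted p = 0.367). The position of these reads within Cnr1 is unknown, so these values do not check the genotype and directions rest on the labels. All of the values are from whole tissue, where fewer cells of a type and less RNA per cell cannot be told apart.

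In the control lung the 6 genes differed widely in TPM level. Pdgfa was at 104 ± 9.18 TPM (SD, n = 4), Pdgfra at 88.2 ± 8.21, Pdgfb at 81.3 ± 17.1 and Pdgfrb at 52.8 ± 8.33. Each of these 4 genes overlapped its neighbour in this order across the control libraries. Below them, and without overlap, lay Pdgfd at 16.9 ± 0.75 TPM and Pdgfc at 0.731 ± 0.398 TPM. In WT bleomycin lungs the order was Pdgfa (105.4 ± 10.3 TPM, n = 5), Pdgfb (91.2 ± 20.4), Pdgfra (85.9 ± 11.7), Pdgfrb (62.1 ± 5.92), Pdgfd (10.8 ± 2.82) and Pdgfc (2.79 ± 0.533). The highest library of Pdgfrb (67.6 TPM) was below the lowest of Pdgfra (76.0 TPM), and in Control these genes did not overlap either (46.3 to 64.8 TPM against 78.6 to 98.1 TPM). In CB1R KO bleomycin lungs the order was the same, with Pdgfa at 112 ± 12.2 TPM (n = 4), Pdgfb at 87.9 ± 9.56, Pdgfra at 84.0 ± 8.43, Pdgfrb at 56.9 ± 2.40, Pdgfd at 11.9 ± 2.10 and Pdgfc at 1.95 ± 0.282.

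**Figure D1:**
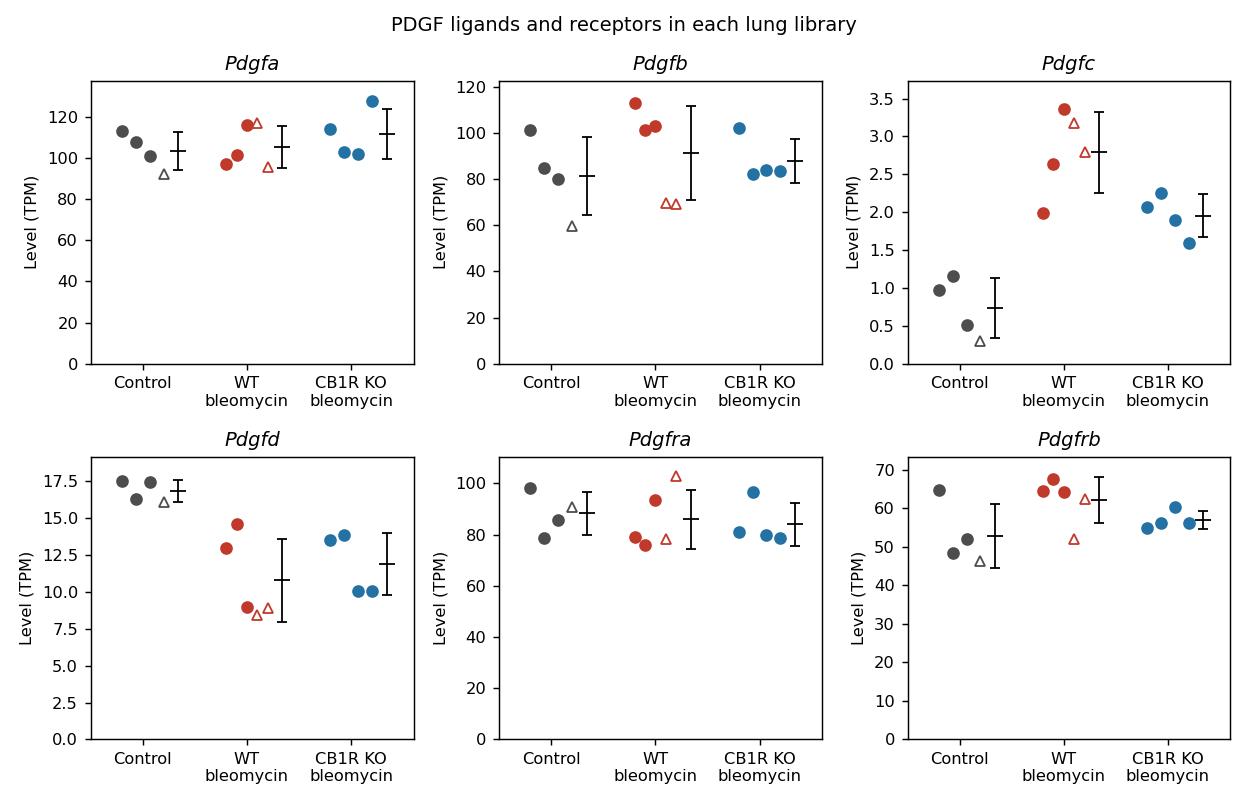
Level in TPM (linear axes from 0, a separate scale per gene) of the 6 genes in each of the 13 libraries, with the mean and SD of each group in black. Open triangles are the 3 libraries whose labels are in mixed case (Control 26, WT 4-B2 and WT 7). Pdgfc is higher and Pdgfd lower in every bleomycin library than in every control library, and the other 4 genes overlap between groups. The share of all genes tested that separate in this way was not counted.

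The first comparison, WT bleomycin against Control, asked which of these genes differed in the fibrotic lung. Of the 6 genes, 1 rose (Pdgfc), 1 fell (Pdgfd) and 4 did not pass the test, against a background of 48.9% of the 15315 genes tested (25.0% higher and 23.9% lower). The median log2 fold change was 0.06 over the 6 genes and -0.01 over all genes tested. The 2 ligands that moved were those with CUB domains, and their levels moved in opposite directions. How many of all genes tested separate the groups without overlap was not counted, so absence of overlap is given below as description.

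Pdgfc encodes the latent ligand of the alpha receptor. In control libraries 3, 21, 24 and 26 it was at 0.968, 1.15, 0.508 and 0.294 TPM. WT bleomycin libraries 4, 2, 5, 4-B2 and 7 held 1.99, 2.63, 3.37, 3.17 and 2.80 TPM. CB1R KO libraries 8, 9, 10 and 11 held 2.06, 2.26, 1.90 and 1.59 TPM. Every bleomycin library was thus above every control library, and WT and CB1R KO libraries overlapped, library 4 being within the CB1R KO range. Pdgfc rose 3.71-fold in WT bleomycin lungs (log2 fold change 1.89, SE 0.30, 95% interval 1.24 to 2.54, adjusted p = 0.000147, edgeR's quasi-likelihood test, Benjamini-Hochberg adjusted over all genes tested). In CB1R KO bleomycin lungs it was 2.49-fold above Control (log2 fold change 1.32, SE 0.32, adjusted p = 0.00507 by the same test). These values rest on 11.2 to 45.7 estimated counts in each control library, which limits the precision of the fold. With limma on log2(TPM + 1), where the added 1 exceeds 3 of the 4 control levels, the log2 fold changes were 1.15 and 0.79, both past the threshold.

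Pdgfd encodes the latent ligand of the beta receptor. Its levels in control libraries 3, 21, 24 and 26 were 17.5, 16.3, 17.5 and 16.1 TPM, the narrowest spread of the 6 genes relative to the mean. In WT bleomycin libraries 4, 2, 5, 4-B2 and 7 they were 12.97, 14.6, 8.99, 8.45 and 8.94 TPM, and in CB1R KO libraries 8, 9, 10 and 11 they were 13.5, 13.9, 10.1 and 10.1 TPM. All 9 bleomycin libraries were below all control libraries, and in both bleomycin groups 2 libraries lay at 12.97 to 14.6 TPM with the rest at 10.1 TPM or less. Pdgfd fell to 0.623 of its control level in WT bleomycin lungs (log2 fold change -0.68, SE 0.13, 95% interval -0.96 to -0.41, edgeR's quasi-likelihood test, adjusted p = 0.000542). In CB1R KO bleomycin lungs it was at 0.684 of the control level (log2 fold change -0.55, SE 0.14, edgeR adjusted p = 0.00619).

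**Figure D2:**
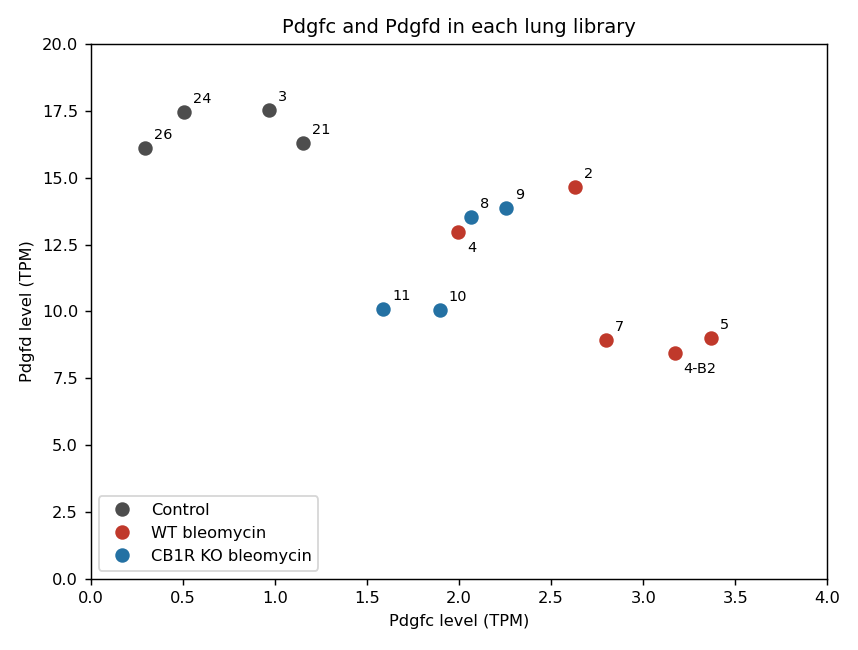
Level of Pdgfd against level of Pdgfc, both in TPM, with each of the 13 libraries as a point labelled by its mouse number. The 4 control libraries lie at the upper left, with Pdgfc at 1.15 TPM or less and Pdgfd at 16.1 TPM or more, apart from all 9 bleomycin libraries.

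The sequences before the annotated starts of these 2 genes are shown because they are the members that moved with bleomycin. Of the 6 genes, 4 were matched by symbol in the RefSeq promoter table (build GRCm38.p6), which differs from the build of the deposited values, GRCm39. Each line gives 250 bases 5′ to 3′ up to the base before the start, and capitals mark the matches to any of 5 motifs searched on both strands: TATAAA (the TATA box), GGGCGG (bound by Sp1), TGANTCA (bound by AP-1), GCGNGGGCG (bound by Egr1) and the CArG box of serum response factor. Matches of GGGCGG and GCGNGGGCG can overlap.
Pdgfc, chr3:81036166-81036415, + strand: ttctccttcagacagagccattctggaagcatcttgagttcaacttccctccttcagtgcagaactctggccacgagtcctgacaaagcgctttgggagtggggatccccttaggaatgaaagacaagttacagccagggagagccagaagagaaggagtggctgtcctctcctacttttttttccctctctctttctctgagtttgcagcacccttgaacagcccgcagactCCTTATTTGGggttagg
Pdgfd, chr9:6168236-6168485, + strand: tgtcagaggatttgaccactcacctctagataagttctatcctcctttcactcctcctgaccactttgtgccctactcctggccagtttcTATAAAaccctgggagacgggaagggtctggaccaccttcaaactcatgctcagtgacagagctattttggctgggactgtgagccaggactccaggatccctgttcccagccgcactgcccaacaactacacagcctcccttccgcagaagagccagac
The match in Pdgfc is a CArG box, 17 to 8 bases before the start, a motif found in 1.47% of the 32851 promoters of the table over the same length. The match in Pdgfd is TATAAA, 160 to 155 bases before the start, which 12.4% of promoters hold at any position over the same length. Whether it serves as a TATA box at this position was not tested. Neither window held GGGCGG (32.7% of promoters), TGANTCA (6.75%) or GCGNGGGCG (4.70%). These are matches of letters, and no binding was measured.

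Pdgfa encodes the alpha receptor ligand known for its role in forming alveoli. Its level was 92.1 to 113 TPM in control (median 104), 95.8 to 117 TPM in WT bleomycin (median 101) and 102 to 128 TPM in CB1R KO bleomycin libraries (median 109). The 3 groups overlapped, and the highest library was CB1R KO replicate 11. The difference between WT bleomycin and Control was 0.01 on the log2 scale (SE 0.09, 95% interval -0.18 to 0.21, edgeR adjusted p = 0.917).

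Pdgfb encodes the ligand that recruits pericytes to vessels. Control libraries 3, 21, 24 and 26 were at 101, 84.7, 79.9 and 59.6 TPM. WT bleomycin libraries 4, 2, 5, 4-B2 and 7 were at 113, 101, 103, 69.5 and 69.2 TPM. CB1R KO libraries 8, 9, 10 and 11 were at 102, 82.1, 83.7 and 83.7 TPM. The lowest control library and the 2 lowest WT bleomycin libraries were the 3 whose labels are written in mixed case, and what the style of the label stands for was not stated. The log2 fold change with bleomycin in WT lungs was 0.11 (SE 0.14, 95% interval -0.20 to 0.42, edgeR adjusted p = 0.551). It was 0.18 with the label style as a term in the fit (edgeR adjusted p = 0.0672) and 0.19 among libraries with lower-case labels alone (edgeR adjusted p = 0.163), and its range over all alternatives was -0.01 to 0.22.

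Pdgfra encodes the alpha receptor. Control libraries held 98.1, 78.6, 85.6 and 90.6 TPM, and WT bleomycin libraries held 79.1, 76.0, 93.6, 78.1 and 103 TPM, in the order given above. CB1R KO libraries 8 to 11 held 81.0, 96.6, 80.0 and 78.5 TPM. The groups overlapped throughout, and the log2 fold change in WT bleomycin lungs was -0.07 (SE 0.11, 95% interval -0.29 to 0.16, edgeR adjusted p = 0.622).

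Pdgfrb encodes the beta receptor. It was at 64.8, 48.3, 51.9 and 46.3 TPM in the control libraries, at 64.4, 67.6, 64.2, 52.1 and 62.3 TPM in the WT bleomycin libraries and at 54.8, 56.2, 60.3 and 56.2 TPM in the CB1R KO libraries. The WT bleomycin libraries lay above 3 of the 4 control libraries, and Control 3 was the second highest of all 13. The log2 fold change in WT bleomycin lungs was 0.20 (SE 0.08, 95% interval 0.02 to 0.38, edgeR adjusted p = 0.0624). This difference missed the threshold after adjustment. It passed in 3 of 25 alternatives: without Control 3 (log2 fold change 0.30, edgeR adjusted p = 0.00352), without WT 4-B2 (0.25, adjusted p = 0.0230) and with the label style as a term (0.22, adjusted p = 0.0302).

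**Figure D3:**
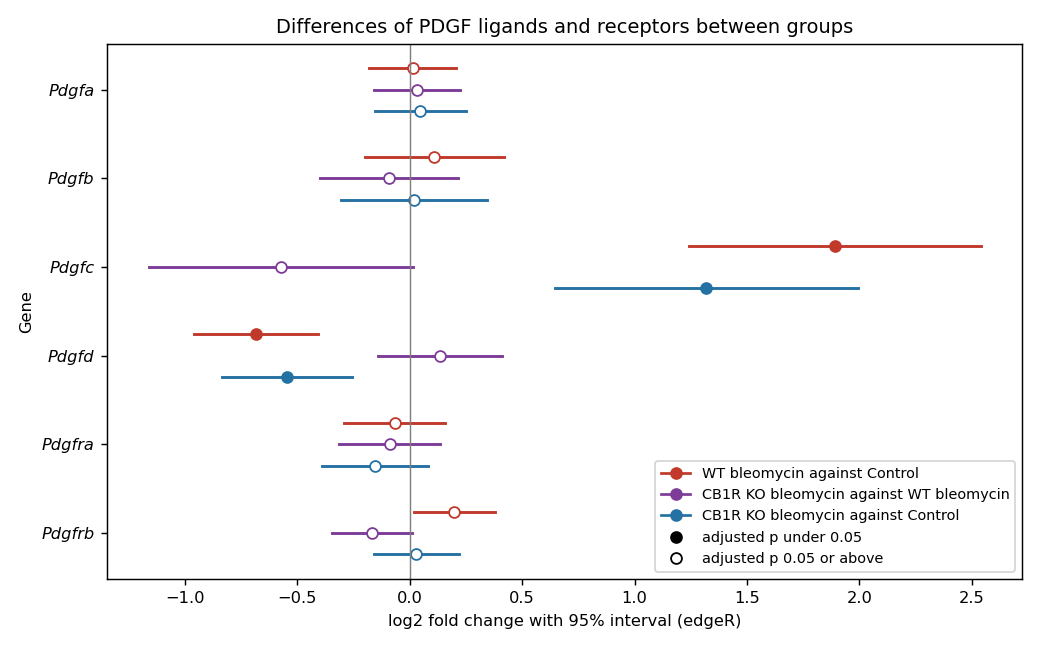
Log2 fold change and 95% interval from edgeR for each of the 6 genes in the 3 comparisons, with filled points for an adjusted p under 0.05 and the grey line at 0. The filled points are those of Pdgfc and Pdgfd in the 2 comparisons against Control, on opposite sides of 0. These 2 comparisons share the 4 control libraries.

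The second comparison, CB1R KO bleomycin against WT bleomycin, asked whether the deletion of Cnr1 altered these genes in the injured lung. None of the 6 genes passed edgeR's quasi-likelihood test, none had an unadjusted p under 0.05, and none passed DESeq2 or limma, against a background of 0.979% of all genes tested (0.359% higher and 0.620% lower). The gene with the largest difference was Pdgfc, whose log2 fold change of -0.57 (SE 0.28) had a 95% interval of -1.16 to 0.02 (edgeR adjusted p = 0.308), so a substantial fall and no fall are both within the interval. Pdgfrb differed by -0.17 (SE 0.08, 95% interval -0.35 to 0.01, edgeR adjusted p = 0.323). Pdgfd differed by 0.13 (95% interval -0.14 to 0.41), Pdgfa by 0.03 (-0.16 to 0.23), Pdgfb by -0.09 (-0.40 to 0.22) and Pdgfra by -0.09 (-0.31 to 0.14), all log2 fold changes with adjusted p = 0.634 or more in edgeR. Among the libraries with lower-case labels alone, the differences of Pdgfd and Pdgfra were -0.01 and 0.00, so their direction was not settled.

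The third comparison, CB1R KO bleomycin against Control, uses the same 4 control libraries as the first and is no separate evidence. Of the 6 genes, Pdgfc was again higher and Pdgfd again lower, with 35.4% of all genes tested past the threshold (19.0% higher and 16.3% lower). The share of higher genes among those past the threshold was 53.8% in the edgeR fit and 70.6% with limma on log2(TPM + 1). The log2 fold changes of the others were 0.05 for Pdgfa (95% interval -0.16 to 0.25), 0.02 for Pdgfb (-0.30 to 0.34), -0.16 for Pdgfra (-0.39 to 0.08) and 0.03 for Pdgfrb (-0.16 to 0.22), with adjusted p = 0.294 or more in edgeR. In WT bleomycin lungs, side by side, the same 4 differences were 0.01, 0.11, -0.07 and 0.20.

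As shares of the summed TPM of the 4 ligands, which was 202 ± 26.9 in Control, 210 ± 22.5 in WT bleomycin and 213 ± 16.8 in CB1R KO bleomycin lungs, Pdgfa and Pdgfb made up most of the ligand RNA in every group. Pdgfa held 51.4% ± 2.55 in Control, 50.5% ± 6.33 in WT bleomycin and 52.3% ± 3.47 in CB1R KO bleomycin lungs, and Pdgfb held 39.8% ± 3.29, 43.0% ± 5.93 and 41.2% ± 2.80. Pdgfd went from 8.42% ± 0.956 in Control to 5.13% ± 1.12 in WT and 5.58% ± 1.02 in CB1R KO bleomycin lungs. Pdgfc went from 0.349% ± 0.167 to 1.34% ± 0.303 and 0.921% ± 0.170, so it remained the least abundant ligand RNA in whole lung in all 3 groups.

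Between the receptors, Pdgfra exceeded Pdgfrb in TPM in 13 of 13 libraries, by 1.12-fold to 1.96-fold. The log2 ratio of Pdgfra to Pdgfrb was 0.75 ± 0.16 (SD, n = 4) in Control, 0.46 ± 0.22 (n = 5) in WT bleomycin and 0.56 ± 0.16 (n = 4) in CB1R KO bleomycin lungs. The ratio overlapped between groups, and its difference of -0.29 between WT bleomycin and Control did not pass (two-sided exact permutation test, p = 0.0635, adjusted p = 0.190 over 3 comparisons, smallest p possible 0.00794). The differences were 0.10 between CB1R KO and WT bleomycin (exact permutation p = 0.492, adjusted p = 0.492) and -0.19 between CB1R KO bleomycin and Control (exact permutation p = 0.171, adjusted p = 0.257, smallest p possible 0.0286).

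A list of 51 other genes that process, bind or transmit PDGF was read in the same fit. It was chosen with earlier results of these data known, so its counts are description and no test of the set was run. In WT bleomycin against Control, 26 of the 51 rose and 8 fell, with a median log2 fold change of 0.21, beside 25.0% of all genes tested that rose, 23.9% that fell and a median of -0.01. Differences between roles were not tested. All 9 genes of ligand processing rose (median 0.85), 5 of 6 genes of ligand binding and co-receptors rose and 1 fell (median 0.67), and 5 of 8 genes of receptor down-regulation rose and none fell (median 0.22). Among 21 genes of intracellular signalling, 3 rose and 7 fell (median -0.08), so that the share past the threshold was near the 48.9% of all genes tested. Of 7 genes that PDGF is known to induce within hours in cultured fibroblasts, 4 rose and none fell (median 0.55), and these respond to many other stimuli.

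**Figure D4:**
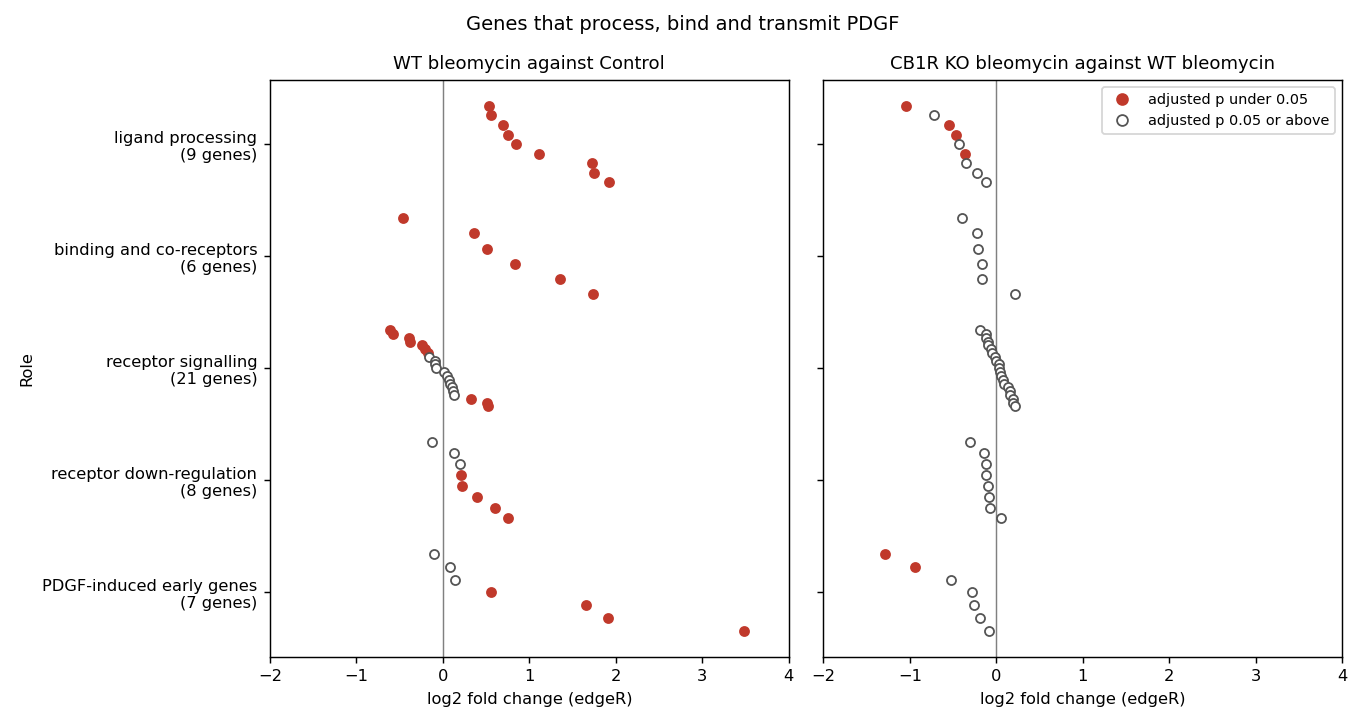
Log2 fold change from edgeR of the 51 genes by role, each point a gene, for WT bleomycin against Control (left) and CB1R KO bleomycin against WT bleomycin (right). Filled points have an adjusted p under 0.05. On the left all 9 genes of ligand processing are filled and to the right of 0, and on the right the 6 filled points all lie to the left of 0, in the roles of ligand processing and early genes.

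Ligand processing holds the proteases that release active PDGF and the inhibitors of those proteases, so its members do not all act in one direction. Plat encodes tissue plasminogen activator, which cleaves PDGF-C. It was at 32.4, 30.7, 35.8 and 32.7 TPM in control libraries, at 72.5, 78.2, 70.05, 74.9 and 69.2 TPM in WT bleomycin libraries and at 46.8, 58.3, 59.6 and 52.6 TPM in CB1R KO libraries. No 2 of the 3 groups overlapped, with CB1R KO between the others. Plat is named, like Furin and Serpine2 below, because it passed between CB1R KO and WT bleomycin, so a separation there follows partly from the choice. Its log2 fold change was 1.11 (SE 0.08, edgeR adjusted p = 1.38e-07) in WT bleomycin lungs against Control and -0.47 (SE 0.08, edgeR adjusted p = 0.0187) in CB1R KO against WT bleomycin lungs.

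Plau encodes urokinase, which cleaves PDGF-D, and is named here for that role, after its values were seen. It rose from 3.92 to 9.31 TPM in Control to 16.8 to 26.6 TPM in WT bleomycin lungs (log2 fold change 1.73, SE 0.20, edgeR adjusted p = 8.35e-06). CB1R KO libraries held 10.1 to 15.8 TPM, between the other groups and without overlap, but the difference from WT bleomycin did not pass (log2 fold change -0.72, SE 0.19, edgeR adjusted p = 0.0778).

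Furin encodes the convertase that trims PDGF-A and PDGF-B inside the cell. It rose from 55.5 to 61.0 TPM in Control to 89.2 to 101 TPM in WT bleomycin lungs (log2 fold change 0.69, SE 0.08, edgeR adjusted p = 5.80e-06), and CB1R KO libraries held 74.7 to 83.9 TPM (log2 fold change -0.36 against WT bleomycin, SE 0.08, edgeR adjusted p = 0.0411).

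Serpine2 encodes an inhibitor of tissue plasminogen activator and urokinase. It was at 80.6 to 94.5 TPM in Control, 261 to 311 TPM in WT bleomycin and 161 to 264 TPM in CB1R KO lungs. In the CB1R KO group, library 10 reached the WT range. Its difference between CB1R KO and WT bleomycin was -0.55 on the log2 scale (SE 0.12, edgeR adjusted p = 0.0416).

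**Figure D5:**
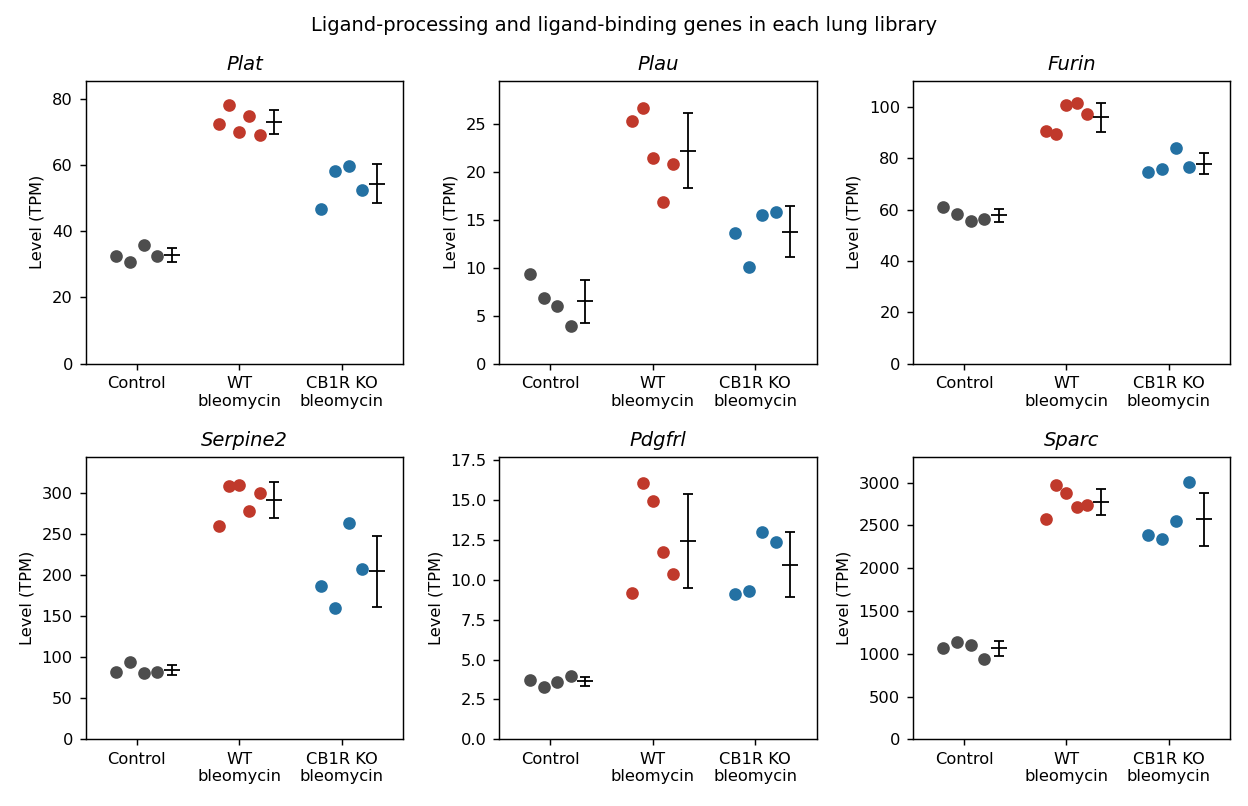
Level in TPM of 4 ligand-processing genes (Plat, Plau, Furin and Serpine2) and 2 genes of the binding and co-receptor role (Pdgfrl and Sparc). Each of the 13 libraries is a point, and the mean and SD of each group are in black. Axes are linear from 0, with a separate scale per gene. For Plat, Plau and Furin the CB1R KO libraries lie between the control and WT bleomycin libraries without overlap, and for Serpine2, Pdgfrl and Sparc they overlap the WT bleomycin libraries. Plat, Furin and Serpine2 were chosen because they passed between CB1R KO and WT bleomycin, and Plau after its values were seen. A separation of those 2 groups therefore follows partly from the choice.

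In the role of binding and co-receptors, Pdgfrl encodes a secreted protein with sequence likeness to the outer part of the PDGF receptors and no kinase. It was listed there for this likeness, and binding of PDGF by it was not measured. Its level was 3.30 to 3.94 TPM in Control, 9.17 to 16.0 TPM in WT bleomycin and 9.11 to 12.98 TPM in CB1R KO bleomycin lungs. Pdgfrl rose 3.33-fold in WT bleomycin lungs (log2 fold change 1.74, SE 0.19, edgeR adjusted p = 5.53e-06) and differed by -0.21 between CB1R KO and WT bleomycin (95% interval -0.58 to 0.16, edgeR adjusted p = 0.562). Sparc, a matrix protein that binds PDGF-B, rose from 937 to 1135 TPM in Control to 2576 to 2970 TPM in WT bleomycin lungs (log2 fold change 1.35, SE 0.09, edgeR adjusted p = 6.90e-08). Nrp1, a co-receptor shared with VEGF and present on endothelium, was the 1 gene of the role that fell, from 127 to 144 TPM to 80.8 to 116 TPM (log2 fold change -0.46, SE 0.09, edgeR adjusted p = 0.000740).

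In the signalling list, Shc1, an adaptor that couples receptors to Ras, had the lowest p of those that rose (54.9 to 63.9 TPM in Control, 81.8 to 86.5 TPM in WT bleomycin; log2 fold change 0.52, SE 0.04, edgeR adjusted p = 6.29e-07). Stat5b, a transcription factor activated by many receptors, had the lowest p of those that fell (30.9 to 36.0 TPM in Control, 18.7 to 24.6 TPM in WT bleomycin; log2 fold change -0.57, SE 0.06, edgeR adjusted p = 4.99e-06). Ptpn1, a phosphatase that acts on PDGF receptors, led the genes of receptor down-regulation (35.4 to 39.5 TPM in Control, 60.5 to 73.6 TPM in WT bleomycin; log2 fold change 0.75, SE 0.09, edgeR adjusted p = 1.13e-05). In CB1R KO against WT bleomycin lungs none of the 35 genes of binding, signalling and down-regulation passed the edgeR test. Of these 35 genes, 11 had an unadjusted p under 0.05 in that test. The share of all genes tested under this unadjusted cut-off was not counted. The list was also chosen with earlier results known, so the 11 are description only.

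Myc and Ccl2, early genes known from PDGF-treated fibroblasts, were also lower in CB1R KO than in WT bleomycin lungs. Of the 7 early genes only these 2 passed in that comparison, and genes that passed there were named by rule. Myc, a growth-promoting transcription factor, was at 7.04, 7.21, 9.05 and 9.37 TPM in control libraries, at 24.2, 19.7, 29.0, 27.9 and 30.3 TPM in WT bleomycin libraries and at 15.5, 12.6, 16.1 and 13.5 TPM in CB1R KO libraries, without overlap between groups. Its log2 fold change was 1.66 (SE 0.14, edgeR adjusted p = 6.82e-07) in WT bleomycin lungs and -0.95 (SE 0.14, edgeR adjusted p = 0.0177) in CB1R KO against WT bleomycin lungs. Ccl2, a chemokine that attracts monocytes, was at 1.32 to 3.25 TPM in Control, 19.6 to 25.0 TPM in WT bleomycin and 4.37 to 14.2 TPM in CB1R KO lungs (log2 fold change between the last 2 groups -1.29, SE 0.29, edgeR adjusted p = 0.0478).

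Over the list, 6 of 51 genes were lower and none higher in CB1R KO than in WT bleomycin lungs, beside 0.620% of all genes tested that were lower and 0.359% that were higher. Because the list was chosen with earlier results known, these shares are set side by side as description only. The median log2 fold change was -0.12 over the list and 0.00 over all genes tested. The count depended on single libraries: it was 1 without CB1R KO 9 or without CB1R KO 11, 2 without CB1R KO 8, 11 without CB1R KO 10, 3 without any 1 of Control 21, Control 24 and WT 2, 5, 4-B2 or 7, and 1 among libraries with lower-case labels. Of 25 alternatives, Myc passed in 22, Plat in 21, Furin in 12, Serpine2 in 11 and Ccl2 in 9 of the 24 that tested it. Plat lost the call without CB1R KO 8, 9 or 11 and Myc without CB1R KO 9 or 11, and both lost it with lower-case labels alone. Furin, Serpine2 and Ccl2 each passed in 3 of the 13 fits that left out a library. Against Control, 19 of the 51 genes were higher and 3 lower in CB1R KO bleomycin lungs (beside 19.0% and 16.3% of all genes tested), with log2 fold changes of 0.65 for Plat and 1.52 for Pdgfrl.

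Likeness of pattern was measured as the root mean square difference in log2 CPM, centred on each gene's mean, over the 13 libraries. The 3 nearest genes were Serpinb9b (0.28), Clec11a (0.32) and S100a4 (0.36) for Pdgfc, whose own root mean square about its mean was 0.95. For Pdgfd (0.35 about its mean) they were Dach1 (0.10), Tmem47 (0.11) and Pitpnc1 (0.11). Near genes were Tmem222, Anapc2 and Armc5 for Pdgfa (0.07 each), Zfp710, P2rx7 and Gap43 for Pdgfb (0.12 to 0.13), Acadsb and Plekhj1 for Pdgfra (0.09 and 0.11) and Zbtb7b, Bbc3 and Lsp1 for Pdgfrb (0.07 to 0.08). For these 4 members the values about their own means were 0.13, 0.22, 0.16 and 0.15, so that little variation was there to match.

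Marker genes of the cell types that make or receive PDGF were read in the same fit, in which 48.9% of all genes tested passed between WT bleomycin and Control (25.0% higher and 23.9% lower). In WT bleomycin against Control, 7 of 8 markers of alveolar fibroblasts fell and 1 rose, with a median log2 fold change of -1.06. Their summed level, in which the most abundant markers weigh most, went from 3611 to 4317 TPM to 783 to 1182 TPM. The summed level in CB1R KO bleomycin lungs was 1058 to 2247 TPM. Markers of activated fibroblasts rose in 7 of 7 cases, from 341 to 457 TPM to 1598 to 2128 TPM, and 5 of 7 markers of adventitial fibroblasts rose. Pdgfra, which marks several kinds of fibroblast, differed by less than its spread between the same libraries.

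Of 10 pericyte markers, 7 fell and 1 rose, and their summed level went from 484 to 518 TPM in Control to 290 to 391.7 TPM in WT bleomycin and 378 to 434 TPM in CB1R KO bleomycin lungs. Endothelial markers, of cells that make PDGF-B, fell in 6 of 7 cases and rose in 1 (1720 to 2195 TPM in Control, 1262 to 1489 TPM in WT bleomycin). Markers of platelets and megakaryocytes fell in 4 of 6 cases and rose in 1. Macrophage markers rose in 6 of 6 cases and those of scar-associated macrophages in 4 of 4, as did 4 of 4 markers of dividing cells. Markers of smooth muscle (2 higher and 1 lower of 6), epithelium (1 and 3 of 6) and mesothelium (1 and 1 of 4) were mixed, and those of smooth muscle and mesothelium passed about as often as all genes tested. Cardiac muscle markers fell in 5 of 5 cases and adipocyte markers in 3 of 4 tested. No marker was at 0 in every library of a group. The part of these cell types in the rise of Pdgfc, the fall of Pdgfd or the values of the other members was not tested.

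Between CB1R KO and WT bleomycin, where 0.979% of all genes tested passed edgeR's test (0.359% higher and 0.620% lower), the markers that passed were in 4 sets: 2 of 8 of alveolar fibroblasts, 1 of 7 of endothelium and 1 of 6 of epithelium were higher, and 1 of 6 of smooth muscle was lower. None of the 10 pericyte markers and none of the 7 activated fibroblast markers passed, with median log2 fold changes of 0.11 and -0.71. The summed level of activated fibroblast markers was 1154 to 1753 TPM in CB1R KO lungs, overlapping the WT bleomycin range.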

How the data were processed

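Lung RNA libraries (NEBNext Ultra II, oligo(dT) selection, paired-end Illumina reads) were quantified by the authors with kallisto on an Ensembl mouse index (build GRCm39 in the submitters' processing notes), and the estimates of all protein-coding transcripts of a gene were added up. The deposited estimated counts are not normalized, and 70.5% of the values are not whole. The deposited TPM are scaled for length and total. In the TPM table, 1 column matched no sample and was not used. The single-sample files hold the same values.

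Estimated counts were rounded, filtered with filterByExpr (15315 genes), scaled by TMM and fitted over all 13 libraries in 3 groups by edgeR 4.0.16 under R 4.3.3 (quasi-likelihood test). P-values were adjusted by Benjamini-Hochberg, with a threshold of 0.05. Log2 CPM for pattern likeness used a prior count of 2. Ratios were compared by exact permutation. The edgeR procedure was run on data simulated for WT bleomycin against Control, with fixed changes in well-counted genes and a constant spread. That run is no check of low-count genes such as Pdgfc or of CB1R KO against WT bleomycin. Python 3.11.15 made tables and plots.

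Exons of Pdgfa, Pdgfc and Pdgfra overlap other genes in another annotation (GENCODE M21), none protein-coding. These lie on the opposite strand, except the microRNA gene Mir7025, which lies on the same strand as Pdgfra. The library kit does not mark strand, so reads of such partners cannot be told apart from theirs.

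The members and gene lists were chosen with earlier results of these data known. Genes named were the 6 members, the 3 nearest to each, Cnr1, Pdgfrl, the gene with the lowest p in each role and direction, those past the threshold between CB1R KO and WT bleomycin, and Plau. Of the genes this rule selects, 2 are not reported here. Alternatives were other filters, RLE and upper-quartile scaling, DESeq2 1.42.0, edgeR on 2 groups, limma 3.58.1 on log2 TPM with 1 or 0.1 added (genes at 0.5 TPM or more in 4 libraries), the label style, CB1R KO replicate 11 thinned, and each library left out.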

Additional observations from a re-analysis of the deposited data

Results flagged for a closer look

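Within the CB1R KO bleomycin group, 2 values stood apart from the other 3 libraries by more than Dixon's 95% limit. Pdgfb was highest in CB1R KO replicate 8, at 102 TPM (176 CPM), against 82.1 to 83.7 TPM in replicates 9, 10 and 11. Pdgfra was highest in CB1R KO replicate 9, at 96.6 TPM (386 CPM), against 78.5 to 81.0 TPM in replicates 8, 10 and 11. Both values lay within the range of the WT bleomycin libraries. The check was run on 39 sets of values, of which the TPM and CPM of a gene are not independent, and chance alone marks about 1 set in 20.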

How the results depend on the processing

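Pdgfc and Pdgfd kept their direction and stayed past the threshold in all 25 alternatives, in WT bleomycin against Control (log2 fold change 1.15 to 2.20 and -0.77 to -0.54) and in CB1R KO bleomycin against Control (0.79 to 1.63 and -0.61 to -0.48). The 25 include fits that left out a library of the group not compared. Such a fit changes a comparison only through the shared spread, filter and scaling, so it is a weaker check. No member passed between CB1R KO and WT bleomycin in any alternative. Pdgfrb in WT bleomycin against Control passed with the label style as a term (0.22) and in 2 fits that left out a library (range 0.15 to 0.30). The differences near 0 changed sign in some fits, none past the threshold: with upper-quartile scaling, Pdgfa in WT bleomycin against Control (-0.0018) and Pdgfb in CB1R KO bleomycin against Control (-0.0008); with the label style as a term, Pdgfb (-0.0932) and Pdgfrb (-0.006) in CB1R KO bleomycin against Control; and among lower-case labels, Pdgfa in WT bleomycin against Control (-0.0549), Pdgfb (-0.0876) and Pdgfrb (-0.0136) in CB1R KO bleomycin against Control, and Pdgfd (-0.0131) and Pdgfra (0.0031) in CB1R KO against WT bleomycin. Leaving out single libraries gave -0.0371 to 0.053 for Pdgfa and -0.0065 to 0.22 for Pdgfb in WT bleomycin against Control, -0.0385 to 0.0851 for Pdgfa in CB1R KO against WT bleomycin, and -0.0218 to 0.0928 for Pdgfa, -0.0945 to 0.13 for Pdgfb and -0.02 to 0.13 for Pdgfrb in CB1R KO bleomycin against Control. The cause was not tested.

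Genes past the threshold between CB1R KO and WT bleomycin numbered 150, against 644 with DESeq2 on all libraries and on the 2 groups, 88 with edgeR on the 2 groups, 62 with limma on log2(TPM + 0.1), 41 with the label style as a term, 6 among lower-case labels and 1 to 653 with a library left out (1 without CB1R KO 9, 653 without CB1R KO 10). The 6 genes of the PDGF list became 11 and 10 with DESeq2, 3 with edgeR on the 2 groups, 1 among lower-case labels and 1 to 11 with a library left out. The total counts against Control stayed within 1.5 times, but genes lower in CB1R KO bleomycin than in Control went from 2504 to 1481 with limma on log2(TPM + 1) and 1432 on log2(TPM + 0.1). No paired analysis was possible because the groups share no replicate numbers. Depth limits Pdgfc in particular, with 11.2 estimated counts in Control 26.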
